A study of Mus musculus with 15 samples.

Results

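The genes described here build the MHC class II molecule, load it with peptide and switch on its transcription: H2-Aa, H2-Ab1, H2-Eb1, Cd74, Ciita, H2-DMa, H2-DMb1, H2-Oa and H2-Ob. They were chosen by name as the core of class II presentation, with earlier results of these data known. They were matched by symbol to the Ensembl identifiers of the raw count table. Each of the 9 symbols had 1 identifier among the 45706 genes of the table. All 9 passed the filter on low counts, which kept 18983 genes, through levels well above it in every genotype.

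Poly(A) RNA of lineage-negative (lin-) bone marrow (BM) progenitors was sequenced to ask how loss of PUMA, a pro-apoptotic BH3-only protein encoded by Bbc3, affects signalling in cells with short telomeres. The groups were 3 WT, 4 Puma-/-, 4 G3 mTerc-/-Puma+/+ and 4 libraries labelled G3 mTerc-/-Puma-/-, where mTerc encodes the RNA component of telomerase and G3 is the third generation bred without it. In every group LSK cells (lin-Sca1+cKit+ stem and progenitor cells) of C57BL/6J donors, 8 to 12 weeks old and CD45.2+, had been passed serially through lethally irradiated CD45.1+ recipients, with no further treatment. BM was taken from secondary recipients 16 weeks after the second transplantation and depleted of lineage-positive cells on magnetic columns.

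Both deletions were germline and thus in all donor cells, but the sources used here name no sort on CD45.2 before RNA extraction, so cells of the irradiated host cannot be told apart from donor cells. Nor do they say whether 1 library is 1 recipient, and the p-values below measure the spread between these libraries. Tests used 14 libraries. Replicate 2 labelled G3 mTerc-/-Puma-/- was not among the libraries drawn in the study's heatmaps, although the study states that no data were excluded, and its value is given beside the others for each class II gene.

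Depth lay between 102790519 and 158367059 counts assigned to genes per library, so that 3 counts, the limit a count of 0 allows, stood for 0.0189 to 0.0296 CPM, the library-scaled count used for all levels here. The targeted genes matched 3 of the 4 labels. Terc had 4 to 17 counts in WT and Puma-/- libraries and 0 or 1 in both G3 genotypes. Bbc3 was at 5.04 to 6.83 CPM in Puma-/-, below the 9.71 to 23.5 CPM of WT, but at 13.5 to 17.1 CPM in the 4 libraries labelled G3 mTerc-/-Puma-/-, where it was not reduced against the 11.8 to 20.8 CPM of G3 mTerc-/-Puma+/+. Directions drawn from those 4 libraries rest on their label.

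MHC class II molecules are pairs of an alpha and a beta chain that display peptides from endocytosed proteins to CD4+ T cells. H2-Aa and H2-Ab1 encode the chains of I-A, and H2-Eb1 encodes the beta chain of I-E, whose alpha chain is not made in mice of the b haplotype such as C57BL/6. Cd74, the invariant chain, occupies the groove until endosomal proteases cut it down, H2-DM then exchanges the remnant for peptide, and H2-DO restrains H2-DM. Ciita is the master coactivator: it binds no DNA itself but is recruited to a factor complex on the X and Y boxes of the class II promoters. In BM, dendritic cells, B lymphoid cells and part of the macrophages and monocytes are the usual carriers of these proteins.

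In the GRCm38 assembly with GENCODE vM21 annotation, 7 of the 9 protein-coding genes lie within the H2 complex on chromosome 17. In order along it these are H2-Oa (chr17:34092340-34095234), H2-DMa (chr17:34119541-34139101), H2-DMb1 (chr17:34153072-34160230), H2-Ob (chr17:34238903-34254414), H2-Ab1 (chr17:34257689-34269419), H2-Aa (chr17:34282744-34287823, minus strand) and H2-Eb1 (chr17:34305867-34316674). Ciita is on chromosome 16 (chr16:10480059-10528418). H2-DMb1 has a near-identical neighbour, H2-DMb2, between which reads can be split. The exons of H2-DMa share 360 bases, 10.4% of their length, with Brd2 on the opposite strand, and those of H2-Oa share 321 bases, 22.8%, with the antisense gene BC051537. Whether counting used strand is not given in the sources used here, so reads from these stretches cannot be assigned with certainty.

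Promoters of class II genes are shown because Ciita is recruited to the X and Y boxes described above. Whether these letters bear on the levels in these libraries was not tested. RefSeq (GRCm38.p6) windows held a start site for 6 of the 9 genes, in 7 windows. H2-Ab1 and Ciita had none, and Cd74 was not searched. Some RefSeq starts differ from the GENCODE starts given above. The stretch printed for H2-DMb1 thus lies inside its GENCODE gene, and that for H2-Oa reaches into its own. Each line gives 81 bases, from 110 to 30 bases before the start, 5′ to 3′ on the strand of the gene, with the core letters of the X box (GNAAC) and the Y box (GATTGG) in capitals where they stand 28 to 33 bases apart.
H2-Aa (chr17:34287853-34287933, minus strand): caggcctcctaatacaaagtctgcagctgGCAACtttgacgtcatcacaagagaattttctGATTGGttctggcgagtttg
H2-Eb1 (chr17:34305757-34305837, plus strand): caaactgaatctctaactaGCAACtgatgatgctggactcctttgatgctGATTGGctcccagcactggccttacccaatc
H2-DMb1 (chr17:34153081-34153161, plus strand): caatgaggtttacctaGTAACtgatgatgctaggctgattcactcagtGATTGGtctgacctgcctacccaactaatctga
H2-Oa (chr17:34092269-34092349, plus strand): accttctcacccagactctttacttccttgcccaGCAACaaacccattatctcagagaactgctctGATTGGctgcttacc
H2-Ob (chr17:34238795-34238875, plus strand): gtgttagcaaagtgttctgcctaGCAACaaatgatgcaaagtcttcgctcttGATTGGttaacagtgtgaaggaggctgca

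The pair of letters was present in 5 of the 6 genes with a window, at X to Y distances of 29 to 32 bases, and each X core began 76 to 94 bases before the start. Among all 32851 windows of 250 bases upstream, from 27025 genes, 0.143% held the same pair on the strand of the gene and 0.277% on either strand. The letters singly were common: GNAAC on the strand of the gene was in 55.2% of windows and GATTGG on either strand in 14.6%. Neither of the 2 windows of H2-DMa held the pair, although 1 of them had GATTGG 199 bases before its start. Their stretches from 110 to 30 bases before the start, chr17:34122722-34122802 and chr17:34125408-34125488, lie inside the GENCODE gene given above. No other start of H2-DMa was searched, so whether it has the pair elsewhere is open. The distance was set after the members' sequences had been viewed, and a match describes letters, not a bound site.

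**Figure D1:**
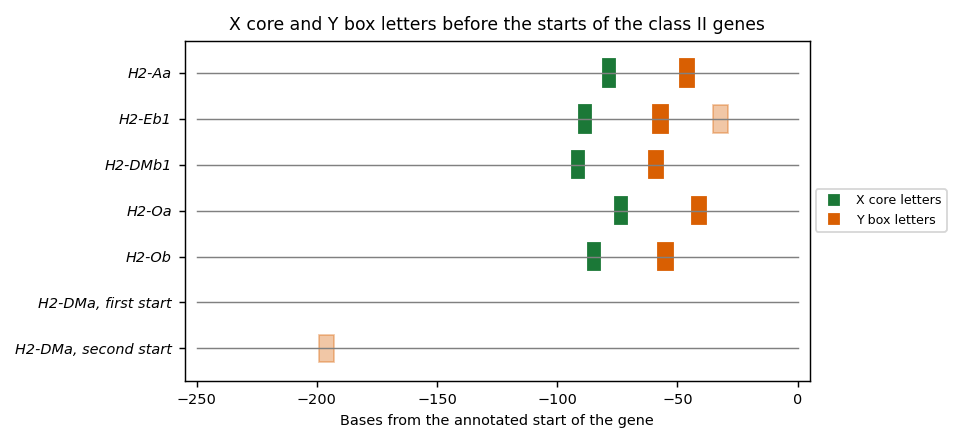
Position of the X core letters (green) and Y box letters (orange), in bases from the annotated start (x axis), in the 7 RefSeq promoter windows of 6 class II genes (1 row per window); faded marks are matches that are not in a pair. The 5 windows with a pair place it at nearly the same distance from the start. The 2 windows of H2-DMa, both at starts inside the GENCODE gene, hold none.

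Levels differed widely between the genes. Per kilobase of annotated exon, the mean over 14 libraries was 359 CPM for Cd74, 107 for H2-Ab1, 87.4 for H2-Eb1 and 73.1 for H2-Aa. The DM chains followed at 52.6 (H2-DMb1) and 51.7 CPM per kilobase (H2-DMa), ahead of H2-Oa at 6.62, H2-Ob at 3.89 and Ciita at 2.45. The invariant chain was thus the most abundant and the transactivator the least, on a scale that depends on the exons annotated. Together the 9 genes took 0.0672% to 0.245% of all counts in the 14 libraries and 0.0265% in replicate 2 labelled G3 mTerc-/-Puma-/-.

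The genes of the class II chains were highest in Puma-/- progenitors. In bulk RNA, fewer cells of a type and less RNA per cell cannot be told apart, and this holds for each level below. H2-Ab1 was at 326, 394, 393 and 416 CPM in the 4 Puma-/- libraries and at 248, 320 and 247 CPM in the 3 WT libraries. In G3 mTerc-/-Puma+/+ it was at 297, 118, 203 and 211 CPM, and in replicates 1, 3 and 4 labelled G3 mTerc-/-Puma-/- at 268, 205 and 201 CPM, with 29.7 CPM in replicate 2. Every Puma-/- library lay above every library of the other genotypes, and the low end was replicate 2 of each G3 genotype.

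H2-Aa, which encodes the partner chain of I-A, had the same order. Its 4 Puma-/- libraries were at 325, 387, 394 and 426 CPM against 268, 312 and 253 CPM in WT. The G3 mTerc-/-Puma+/+ libraries were at 305, 108, 219 and 232 CPM, and those labelled G3 mTerc-/-Puma-/- at 262, 203 and 194 CPM, with 20.3 CPM in replicate 2. Again no Puma-/- library overlapped with another genotype. H2-Eb1 averaged 244 ± 35.3 CPM in Puma-/- (SD, n = 4) and 164 ± 41.2 CPM in WT (n = 3). Its mean was 124 ± 55.1 CPM for G3 mTerc-/-Puma+/+ (n = 4) and 140 ± 34.4 CPM for libraries under the G3 mTerc-/-Puma-/- label (n = 3, 20.0 CPM in replicate 2). Its Puma-/- range, 206 to 279 CPM, reached into the WT range of 139 to 211 CPM.

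Cd74, which chaperones the new chains and keeps their groove closed, is encoded on chromosome 18 (60803848 to 60812652, plus strand). It was at 760, 813, 821 and 933 CPM in Puma-/- and at 575, 721 and 560 CPM in WT. G3 mTerc-/-Puma+/+ libraries gave 605, 248, 428 and 446 CPM. Libraries labelled G3 mTerc-/-Puma-/- gave 643, 444 and 429 CPM, with 116 CPM in replicate 2. As for I-A, the Puma-/- libraries stood above all the rest, while the WT range overlapped with both G3 genotypes.

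Ciita, on which transcription of the chains depends, was at 32.0, 35.3, 23.0 and 36.9 CPM in Puma-/- and at 21.8, 23.7 and 19.0 CPM in WT. It was at 20.8, 14.4, 22.9 and 20.8 CPM in G3 mTerc-/-Puma+/+ and at 23.7, 15.6 and 17.4 CPM in libraries under the G3 mTerc-/-Puma-/- label, with 0.915 CPM (106 counts) in replicate 2. Puma-/- replicate 3 fell among the WT values, so the groups overlapped, unlike the I-A chains.

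The DM chains, which catalyse peptide exchange, varied less. H2-DMa was at 182, 187, 211 and 176 CPM in Puma-/-, 177, 184 and 201 CPM in WT, 206, 112, 152 and 189 CPM in G3 mTerc-/-Puma+/+ and 185, 162 and 173 CPM in libraries under the G3 mTerc-/-Puma-/- label, with 35.9 CPM in replicate 2. All 4 genotypes overlapped in H2-DMa. H2-DMb1 averaged 84.9 ± 2.04 CPM in WT and 103 ± 3.54 CPM in Puma-/-, beside 78.8 ± 24.5 for G3 mTerc-/-Puma+/+ and 85.7 ± 3.76 in libraries under the G3 mTerc-/-Puma-/- label (15.7 CPM in replicate 2), and the lowest Puma-/- library (98.8 CPM) lay above the highest WT library (87.1 CPM).

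Of the chains of H2-DO, the inhibitor of DM, H2-Oa averaged 8.79 ± 1.59 CPM in WT and 11.7 ± 1.05 CPM in Puma-/-, beside 8.04 ± 1.86 for G3 mTerc-/-Puma+/+ and 8.33 ± 0.545 in libraries under the G3 mTerc-/-Puma-/- label (3.69 CPM in replicate 2). H2-Ob averaged 18.1 ± 3.16, 27.7 ± 3.20, 16.1 ± 5.04 and 21.2 ± 3.59 CPM in the same order (7.15 CPM in replicate 2 of the last). The Puma-/- libraries of H2-Ob (23.3 to 30.2 CPM) lay above the WT libraries (15 to 21.4 CPM), whereas those of H2-Oa overlapped with WT.

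**Figure D2:**
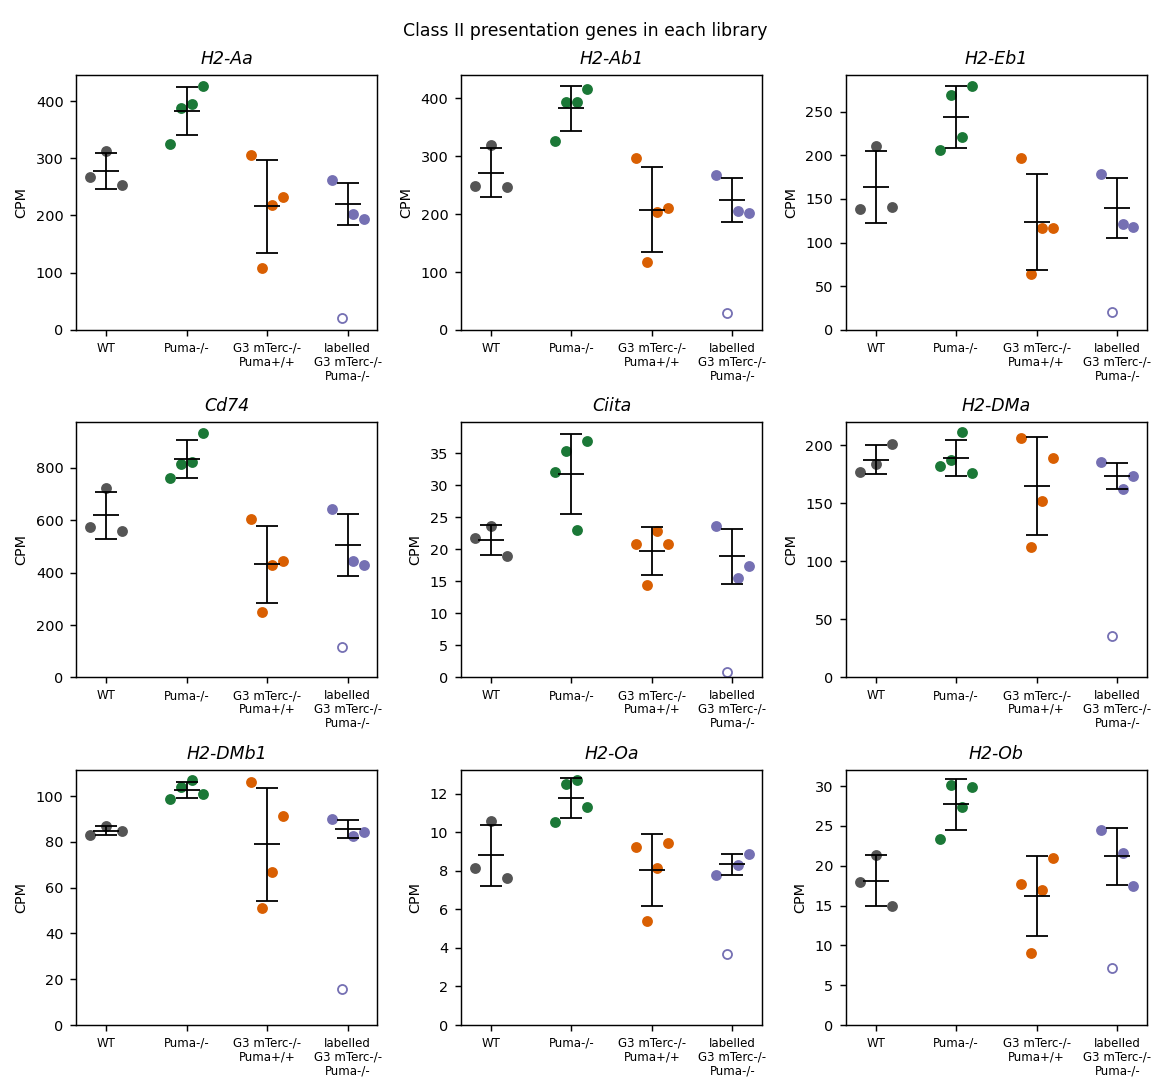
Level of each of the 9 class II genes (CPM, y axis, each panel on its own scale) in every library of the 4 genotypes (x axis); points are libraries, bars the mean ± SD of the 14 libraries tested, and the hollow point is replicate 2 labelled G3 mTerc-/-Puma-/-. The Puma-/- mean is the highest in each of the 9 panels, and the hollow point is the lowest value in each.

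Ordered by mean, Puma-/- came first for all 9 genes, with 14 libraries, with 15 and without TMM factors. With 14 libraries, WT came next for 7 genes and libraries under the G3 mTerc-/-Puma-/- label for H2-DMb1 and H2-Ob. The lowest mean was that of G3 mTerc-/-Puma+/+ for 8 genes and of libraries under the G3 mTerc-/-Puma-/- label for Ciita. With all 15 libraries WT came second for all 9 genes, and libraries under the G3 mTerc-/-Puma-/- label had the lowest mean for 8, G3 mTerc-/-Puma+/+ for H2-Ob. Between neighbours in the orders of 14 libraries, the only gaps without overlap were Puma-/- above WT for H2-Aa, H2-Ab1 and Cd74, and Puma-/- above libraries under the G3 mTerc-/-Puma-/- label for H2-DMb1. The ratio of the highest to the lowest genotype mean was 1.97 for H2-Eb1, 1.93 for Cd74, 1.85 for H2-Ab1 and 1.77 for H2-Aa, and it was smallest for H2-DMb1 (1.30) and H2-DMa (1.15).

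In the comparison of G3 mTerc-/-Puma+/+ with Puma-/- progenitors, 8 of the 9 genes were lower at an unadjusted p below 0.05, and none passed adjustment over all genes. The log2 fold change was -0.98 ± 0.27 (SE) for H2-Eb1, with an adjusted p of 0.0965 in edgeR's quasi-likelihood test. For Cd74 it was -0.94 ± 0.21 with an adjusted p of 0.0548, for H2-Ab1 -0.88 ± 0.21 with 0.0674 and for H2-Aa -0.83 ± 0.23 with 0.0947. H2-Ob (-0.78 ± 0.21, adjusted p = 0.0873) and Ciita (-0.69 ± 0.18, adjusted p = 0.0804) followed closely, then H2-Oa (-0.54 ± 0.17, adjusted p = 0.128) and H2-DMb1 (-0.38 ± 0.16, adjusted p = 0.251). H2-DMa, at -0.20 ± 0.15, had an unadjusted p of 0.2 in the same test.

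Over all genes, the edgeR test called 0.801% with adjustment and 17.1% without, so 8 of 9 without adjustment was above the background and 0 of 9 with it was not. The 9 genes were chosen with earlier results of these data known, and they vary together. The excess of 8 of 9 therefore cannot test the set. The median of the 9 log2 fold changes was -0.78, beside -0.00049 over all genes tested. Each of 7 genes had all 4 G3 mTerc-/-Puma+/+ libraries below all 4 Puma-/- libraries, H2-DMa and H2-DMb1 being the exceptions, and 5.84% of all genes did so. For these 7 the exact two-sided permutation test gave p = 0.0286, the smallest that 4 against 4 libraries allow, and an adjusted p of 0.171 over the 54 tests of the 9 genes in 6 comparisons.

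The call depended on the tool and on the libraries. DESeq2 called 7 of the 9 genes lower, H2-Aa, H2-Ab1, H2-Eb1, Cd74, Ciita, H2-Oa and H2-Ob, with adjusted p-values of 0.00124 to 0.031, in a fit that called 996 genes in all against 152 by edgeR. Limma-voom called Cd74 (adjusted p = 0.0488) and 158 genes in all. With all 15 libraries the fold changes were the same, but their SE was larger (0.37 for Cd74) and edgeR's adjusted p-values for the 9 genes were 0.317 to 0.865. Without G3 mTerc-/-Puma+/+ replicate 1, edgeR called Cd74, H2-Ab1 and H2-Eb1, and without Puma-/- replicate 3 it called Ciita.

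Libraries under the G3 mTerc-/-Puma-/- label were compared with the same 4 Puma-/- libraries, so both comparisons share their controls. The log2 fold change was -0.75 ± 0.19 for Ciita (adjusted p = 0.172 in edgeR's test), -0.80 ± 0.30 for H2-Eb1, -0.80 ± 0.25 for H2-Aa, -0.77 ± 0.23 for H2-Ab1 and -0.72 ± 0.23 for Cd74, with adjusted p-values of 0.285 to 0.443 for these 4 chains. The values were -0.49 ± 0.18 for H2-Oa, -0.39 ± 0.23 for H2-Ob, -0.26 ± 0.18 for H2-DMb1 and -0.12 ± 0.16 for H2-DMa. Fold changes were largest for the chains of I-A and I-E, the invariant chain and Ciita and smallest for DM.

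By edgeR none of the 9 genes passed adjustment (0.306% of all genes did), and 6 were lower at an unadjusted p below 0.05 (8.42% of all genes passed it in either direction). DESeq2 called Ciita (adjusted p = 0.0176) and limma-voom none. The members' median was -0.72, beside 0.0092 over all genes. In 6 genes, H2-Aa, H2-Ab1, H2-Eb1, Cd74, H2-DMb1 and H2-Oa, the groups did not overlap, as in 5.56% of all genes. With replicate 2 included, the log2 fold changes moved to -1.17 for H2-Aa, -1.15 for H2-Eb1, -1.14 for Ciita, -1.12 for H2-Ab1 and -1.03 for Cd74, and edgeR still called none after adjustment.

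Loss of PUMA alone was examined in Puma-/- against WT. All 9 log2 fold changes were above 0, with a median of 0.47 beside 0.0048 over all genes. The values were 0.61 ± 0.23 for H2-Ob, 0.58 ± 0.29 for H2-Eb1, 0.56 ± 0.19 for Ciita, 0.49 ± 0.23 for H2-Ab1, 0.47 ± 0.25 for H2-Aa, 0.43 ± 0.23 for Cd74 and 0.42 ± 0.18 for H2-Oa. H2-DMb1, at 0.27 ± 0.18, and H2-DMa, at 0.01 ± 0.16, differed less from WT.

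None of these passed adjustment in edgeR (0.079% of all genes did), DESeq2 or limma-voom, and their adjusted p-values in edgeR were 0.412 to 0.986. Ciita, H2-Oa and H2-Ob had an unadjusted p below 0.05 by edgeR, as did 10.1% of all genes, and with all 15 libraries in the fit none of the 9 did. In DESeq2 5 genes reached the unadjusted threshold and in limma-voom 3. By edgeR 8 did so in a fit of only the groups compared and without G3 mTerc-/-Puma+/+ replicate 2, and 0 without WT replicate 3. None passed adjustment in those fits, and the share of all genes at the unadjusted threshold was not counted there. H2-Aa, H2-Ab1, Cd74, H2-DMb1 and H2-Ob were higher without overlap, which 5.5% of all genes were. Their exact two-sided permutation p was 0.0571, the smallest that 3 against 4 libraries allow. All 4 Puma-/- libraries exceeded every other library tested in 3 of 9 genes (H2-Aa, H2-Ab1, Cd74) and in 1.31% of all genes.

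Against WT, no class II gene passed the adjusted test in either G3 genotype. In G3 mTerc-/-Puma+/+ the 9 log2 fold changes lay between -0.52 and -0.11 (median -0.18, all genes 0.018), and Cd74 alone had an unadjusted p below 0.05 (0.0402, adjusted p = 0.998 in edgeR), where 3.86% of all genes did so and 0.0369% passed adjustment. In libraries under the G3 mTerc-/-Puma-/- label they lay between -0.34 and 0.23 (median -0.19), and 0 of 9 passed edgeR's test with adjustment (0.0632% of all genes) or without it (5.45%). DESeq2 and limma-voom called none in either comparison.

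The comparison closest to the study's question, libraries under the G3 mTerc-/-Puma-/- label against G3 mTerc-/-Puma+/+, gave log2 fold changes of -0.06 to 0.39 with a median of 0.12, beside -0.015 over all genes. H2-Ob had the largest, 0.39 ± 0.22 with an unadjusted p of 0.104 in edgeR, and Ciita was at -0.06 ± 0.19. No member passed with adjustment (0.0738% of all genes) or without (6.22%), by edgeR, DESeq2 or limma-voom. With replicate 2 included, 7 of the 9 values turned negative, H2-Aa to -0.35. The interaction of the mTerc and Puma genotypes was -0.63 ± 0.27 for Ciita (unadjusted p = 0.0378, adjusted p = 0.980 in edgeR) and between -0.44 and 0.06 for the others, so that 1 gene of 9 passed without adjustment (4.93% of all genes) and none with it (0.0527%).

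**Figure D3:**
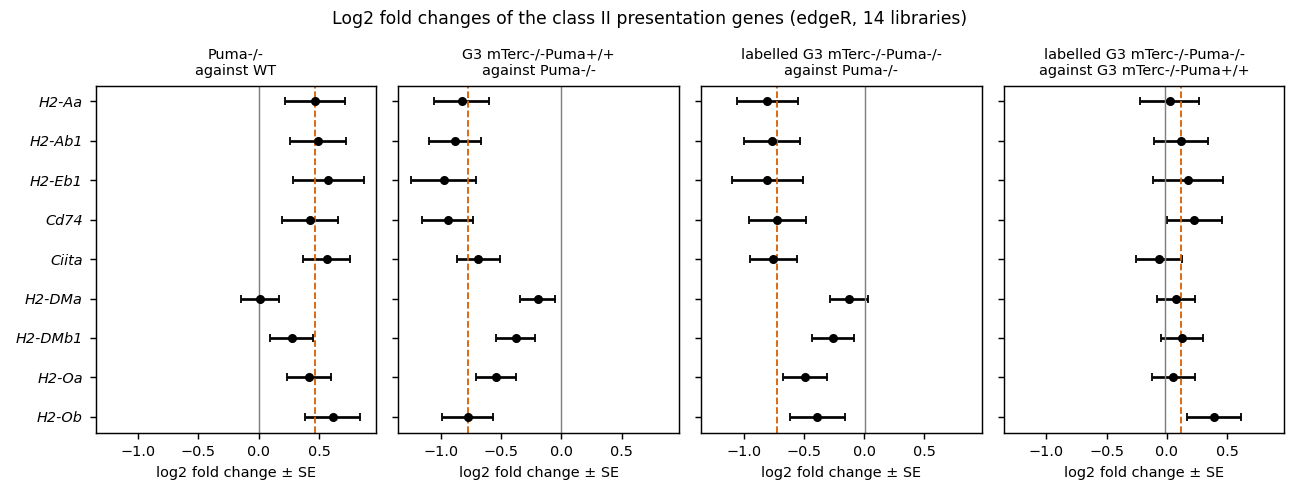
Log2 fold change ± SE (x axis) of each class II gene (y axis) in 4 comparisons, from edgeR with 14 libraries; the grey line is the median of all genes tested and the dashed orange line the median of the 9 genes. Both comparisons against Puma-/- have medians of -0.78 and -0.72, Puma-/- against WT has 0.47, and the G3 genotypes against each other have 0.12.

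The I-A chains and Cd74 kept close proportions to each other in 14 libraries. Per length, H2-Aa was at 0.621 to 0.744 of H2-Ab1 and Cd74 at 3.12 to 3.67 times H2-Ab1, although the levels themselves spanned 3.54-fold for H2-Ab1. Ciita per 1000 of H2-Aa ranged from 23.3 to 53.1, a 2.28-fold span. H2-DMa stood at 0.315 to 0.417 of H2-Ab1 in Puma-/-, at 0.427 to 0.606 in WT, at 0.518 to 0.706 in G3 mTerc-/-Puma+/+ and at 0.515 to 0.639 in libraries under the G3 mTerc-/-Puma-/- label. The 4 Puma-/- libraries thus had less H2-DMa per H2-Ab1 than any other library. H2-DO per H2-DM was 0.105 to 0.125 in Puma-/- and 0.0757 to 0.109 in WT, which overlap.

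Across 14 libraries, the log2 CPM of each gene correlated with the mean of the other 8 at r = 0.757 (H2-DMa) to 0.984, and the 36 pairs had a median r of 0.863. Without G3 mTerc-/-Puma+/+ replicate 2 as well (13 libraries) the median was 0.752, and with all 15 it was 0.935. These values describe libraries that share genotype and cell make-up, and 2 low libraries raise them.

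Those libraries were replicate 2 of each G3 genotype. In G3 mTerc-/-Puma+/+ replicate 2, H2-Aa was 2.33-fold, H2-Eb1 2.25-fold, H2-Ob 2.04-fold, H2-Ab1 2.01-fold and Cd74 1.99-fold below the mean of the other 3 libraries of its genotype, whereas Ciita was 1.49-fold and H2-DMa 1.64-fold below. In replicate 2 labelled G3 mTerc-/-Puma-/-, Ciita was 20.6-fold below the other 3, H2-Aa 10.8-fold, H2-Ab1 7.58-fold, H2-Eb1 6.99-fold and Cd74 4.36-fold. H2-Oa (2.26-fold) and H2-Ob (2.96-fold) were the least lowered there. Its proportions differed too: H2-Aa was at 0.462 of H2-Ab1, Cd74 at 5.98 and H2-DMa at 0.902 times H2-Ab1, each outside the range of the other 14.

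Markers of the cell types that carry class II were summed to set them beside these values. Of the B lymphoid, mature B, conventional dendritic, plasmacytoid dendritic, monocyte and macrophage lists, 2 markers were at 0 counts in 1 library each, Rag1 and Klk1. Over 15 libraries the progenitor marker Kit was at 114 to 165 CPM, and the lineage markers Cd3e (3.61 to 26.8 CPM) and Ly6g (0.0178 to 2.15 CPM) were lower but present. Not all markers of the neutrophil and of the T and NK lists were low. S100a8 was at 132 to 1410 CPM, S100a9 at 144 to 1830 CPM and Nkg7 at 267 to 566 CPM.

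Conventional dendritic cell markers (Itgax, Zbtb46, Flt3, Batf3, Xcr1, Clec9a, Cd209a, Clec10a, Ccr7 and Fscn1) varied in parallel with the class II genes. Their summed level was 389 to 441 CPM in Puma-/-, above every other library, 298 to 336 CPM in WT, 140 to 377 CPM in G3 mTerc-/-Puma+/+ and 321 to 359 CPM in libraries under the G3 mTerc-/-Puma-/- label (43.7 CPM in replicate 2). All 10 were below 0 on the log2 scale in both comparisons against Puma-/- (median -0.68 for G3 mTerc-/-Puma+/+ and -0.53 for libraries under the G3 mTerc-/-Puma-/- label) and 9 of 10 were above 0 in Puma-/- against WT (median 0.33). No single one passed edgeR's adjusted test. In that order, 7, 4 and 0 had an unadjusted p below 0.05, beside 17.1%, 8.42% and 10.1% of all genes. The markers were chosen with earlier results known, so these counts cannot test the list. Flt3, also in the list of stem and multipotent progenitor markers, was the largest part of the sum in the 14 libraries. It was at 139 to 187 CPM in Puma-/- and 109 to 123 CPM in WT.

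Summed class II CPM per CPM of these markers averaged 5.12 ± 0.523 for WT (SD, n = 3) and 5.32 ± 0.393 for Puma-/- (n = 4), beside 4.70 ± 0.784 for G3 mTerc-/-Puma+/+ (n = 4) and 4.16 ± 0.457 for libraries under the G3 mTerc-/-Puma-/- label (n = 3, 5.70 in replicate 2). The Puma-/- mean was 1.33 times the WT mean for the class II sum, 1.28 times for the marker sum and 1.04 times for their ratio. Against libraries under the G3 mTerc-/-Puma-/- label it was 1.58, 1.24 and 1.28 times, and the ratios of these groups did not overlap (4.91 to 5.68 against 3.87 to 4.69). Against G3 mTerc-/-Puma+/+ it was 1.74, 1.49 and 1.13 times. The mean class II score correlated with the log2 marker sum at r = 0.928 over 14 libraries, 0.982 over 15 and 0.852 over 13. The part of dendritic cells in the class II differences was not tested.

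**Figure D4:**
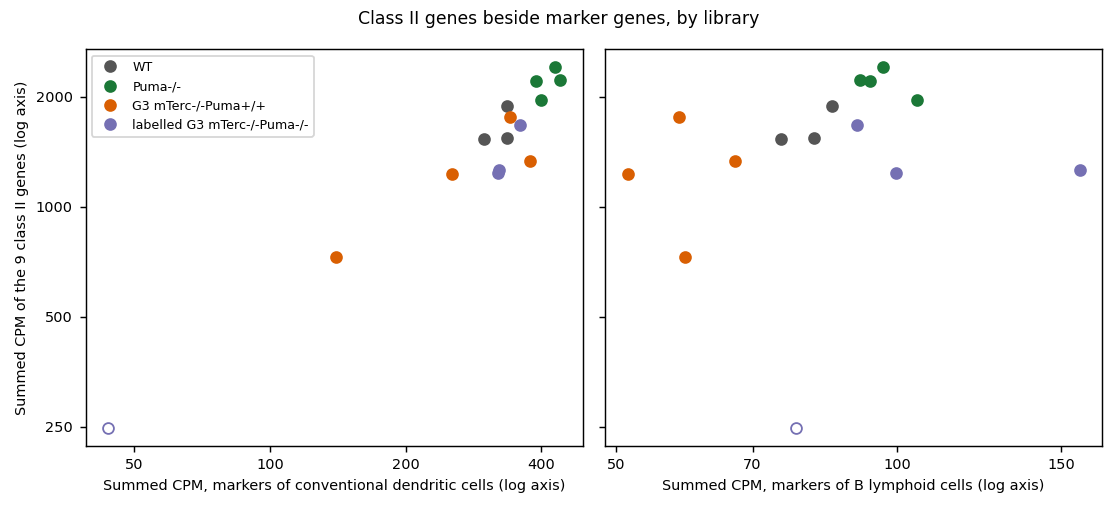
Summed CPM of the 9 class II genes (y axis, log scale) against the summed CPM of conventional dendritic cell markers and of B lymphoid markers (x axes, log scales), 1 point per library, coloured by genotype; the hollow point is replicate 2 labelled G3 mTerc-/-Puma-/-. Class II and dendritic marker sums lie along a line, and no such line is seen for B lymphoid markers. The mean class II score, which is not plotted, correlated with the log2 marker sums over 14 libraries at r = 0.928 (dendritic) and 0.347 (B lymphoid).

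Summed B lymphoid markers had another pattern, although some single B cell markers were highest in Puma-/- too. Fcmr (3.01 to 4.72 CPM) and Cd22 (17.5 to 20.3 CPM) were higher in every Puma-/- library than in any other library. Igll1 was not, at 0.978 to 2.38 CPM in Puma-/- and 4.12 to 16.3 CPM in replicates 1, 3 and 4 labelled G3 mTerc-/-Puma-/-. The 10 B lymphoid markers summed to 51.4 to 67.0 CPM in G3 mTerc-/-Puma+/+, below the 75.0 to 85.1 CPM of WT, the 91.2 to 105 CPM of Puma-/- and the 78.0 to 157 CPM of the 4 libraries labelled G3 mTerc-/-Puma-/-. In G3 mTerc-/-Puma+/+ against Puma-/-, 4 of the 18 markers of both B lists fell in edgeR's test, among them Blnk (-1.10, adjusted p = 0.0430), Ms4a1 (-2.61, adjusted p = 0.000444) and Fcmr (-3.08, adjusted p = 7.06e-05), and all 18 were below 0. Between the G3 genotypes 4 rose under the G3 mTerc-/-Puma-/- label, among them Igll1 (2.95, adjusted p = 0.0393), Blnk (1.79, adjusted p = 0.0128) and Fcmr (1.66, adjusted p = 0.0469), in the comparison where no class II gene passed. Against Puma-/-, libraries under that label had Igll1 higher (2.46, adjusted p = 0.0363) and Fcmr lower (-1.42, adjusted p = 0.0476), and Fcmr was also lower in G3 mTerc-/-Puma+/+ than in WT (-1.86, adjusted p = 0.0230). The class II score correlated with the B lymphoid sum at r = 0.347 and with the mature B sum at 0.472 over 14 libraries. Most of the mature B sum was Cd37, at 160 to 253 CPM over 15 libraries, and no other gene of that list exceeded 9.02 CPM (Ighd). The second r thus mainly describes Cd37. The part of B cells was not tested.

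Plasmacytoid dendritic markers summed to 324 to 421 CPM in WT, to 350 to 418 CPM for Puma-/-, to 234 to 379 CPM for G3 mTerc-/-Puma+/+ and to 422 to 486 CPM in the 3 libraries labelled G3 mTerc-/-Puma-/-, highest where the class II genes were not (r = 0.482 over 14 libraries). Monocyte markers were at 3820 to 6410 CPM in WT and 2590 to 4260 CPM in Puma-/- (r = -0.271), and macrophage markers at 192 to 223 and 210 to 274 CPM (r = 0.567). The sum of stem and multipotent progenitor markers, a list that also holds Flt3, gave r = 0.762.

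In both low libraries the summed conventional dendritic markers were low by about as much as the class II chains, and in replicate 2 labelled G3 mTerc-/-Puma-/- single markers differed widely from that sum. G3 mTerc-/-Puma+/+ replicate 2 had 140 CPM of conventional dendritic markers against 253 to 377 CPM in its group, while its B lymphoid markers (59.3 CPM against 51.4 to 67.0) lay within the group and its neutrophil markers (2050 CPM against 1150 to 1520) above it. Replicate 2 labelled G3 mTerc-/-Puma-/- had 43.7 CPM of conventional dendritic markers against 321 to 359 CPM, 135 CPM of plasmacytoid dendritic markers against 422 to 486 CPM and 1520 CPM of monocyte markers against 4380 to 6000 CPM. Its erythroid markers stood at 1710 CPM against 263 to 421 CPM. Its mature B markers stood at 265 CPM against 185 to 213 CPM, of which Cd37 alone gave 253 CPM against 174 to 201 CPM. Among its conventional dendritic markers Cd209a was 392-fold, Flt3 43.1-fold, Clec9a 33-fold and Itgax 6.48-fold below the mean of the other 3, while Zbtb46 was 1.28-fold below, Ccr7 (4.65 CPM) lay within their range of 4.48 to 6.48 CPM and Fscn1 (6.55 CPM) above their 3.41 to 4.59 CPM. All 10 were also low in G3 mTerc-/-Puma+/+ replicate 2, below the other 3 of the genotype, by 1.48-fold (Clec10a) to 6.52-fold (Cd209a).

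**Figure D5:**
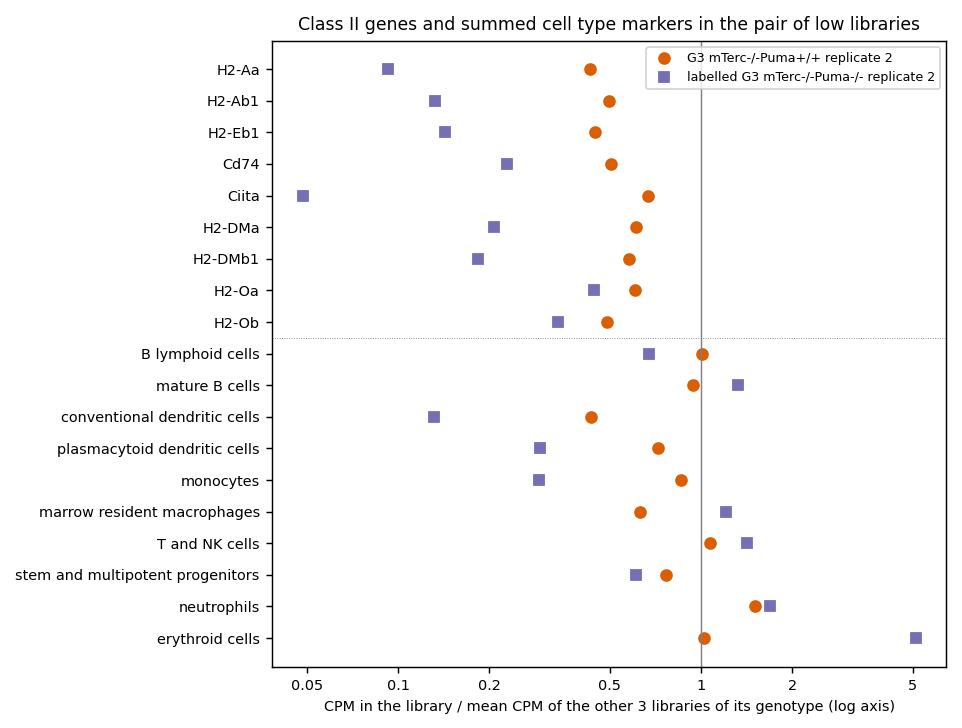
Ratio of replicate 2 of each G3 genotype to the mean of the other 3 libraries of that genotype (x axis, log scale) for the 9 class II genes and for the summed CPM of the cell type marker lists (y axis). Class II genes lie between 0.429 and 0.670 in G3 mTerc-/-Puma+/+ replicate 2 and between 0.0485 and 0.443 in replicate 2 labelled G3 mTerc-/-Puma-/-, where conventional dendritic markers lie at 0.131 and erythroid markers at 5.12.

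The rest of the class II pathway was described by 42 further tested genes in 6 lists, and edgeR called none of them in any of the 7 comparisons. In G3 mTerc-/-Puma+/+ against Puma-/-, 8 of the 42 had an unadjusted p below 0.05, beside the 17.1% of all genes given above. DESeq2 called 4 of the 42 there, H2-Eb2, Cd83 and Cd274 as lower and Cd80 as higher, and limma-voom called none. The other comparisons had 2 to 5 of 42 genes at an unadjusted p below 0.05 by edgeR, where 3.86% to 10.1% of all genes passed it. DESeq2 also called Cd80, as higher, in libraries under the G3 mTerc-/-Puma-/- label against WT and against Puma-/-.

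H2-DMb2, the near copy of H2-DMb1, was at 13.2 ± 0.726 CPM in Puma-/- against 11.4 ± 1.03 in WT, 10.4 ± 2.23 in G3 mTerc-/-Puma+/+ and 10.7 ± 0.292 in libraries under the G3 mTerc-/-Puma-/- label (5.19 CPM in replicate 2). H2-Eb2, a class II beta gene of low expression, had a log2 difference of -1.27 ± 0.29 for G3 mTerc-/-Puma+/+ against Puma-/- (adjusted p = 0.0560 in edgeR) and was not low in replicate 2 labelled G3 mTerc-/-Puma-/- (1.03 CPM against 0.502 to 0.850). H2-Ea-ps, the disabled I-E alpha gene of this haplotype, had 0 to 2 counts per library and was not tested.

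None of the DNA-binding factors to which Ciita is recruited, or of its coactivators, passed edgeR's adjusted test in a comparison. Their list was centred on a log2 fold change of 0.0098 for G3 mTerc-/-Puma+/+ against Puma-/-. Nfya, a subunit of the Y box factor, averaged 186 CPM in WT and 181 CPM in Puma-/-, beside 178 for G3 mTerc-/-Puma+/+ and 176 for libraries under the G3 mTerc-/-Puma-/- label. The histone acetyltransferase Ep300 was at 118, 113, 110 and 110 CPM and the X box factor Creb1 at 82.2, 78.0, 86.6 and 78.3 CPM in the same order. In replicate 2 labelled G3 mTerc-/-Puma-/-, where Ciita was at 0.915 CPM, Nfya was at 112 CPM against 161 to 199 CPM in the other 3, Creb1 at 61.5 against 74.1 to 84.6 CPM and Ep300 at 80.2 against 83.7 to 158 CPM. Rfx5, the DNA-binding subunit of the X box complex, was at 18.9 CPM against 15.6 to 22.0 CPM. Across the 10 genes of the list, the ratio to the mean of the other 3 was 0.637 to 1.08, beside 0.0485 for Ciita.

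Upstream of Ciita, the interferon-gamma route had a median of -0.097 in the same comparison. The receptor chain Ifngr1 averaged 276, 274, 286 and 280 CPM and the kinase Jak1 170, 184, 174 and 183 CPM, in the order WT, Puma-/-, G3 mTerc-/-Puma+/+ and libraries labelled G3 mTerc-/-Puma-/-. Irf8, a transcription factor of dendritic cells and monocytes as well, averaged 810 ± 40.0, 766 ± 49.9, 672 ± 160 and 789 ± 87.6 CPM. It stood at 31.5 CPM in replicate 2 labelled G3 mTerc-/-Puma-/- and at 462 to 865 CPM in the other 14.

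Endosomal proteases and their partners had a median of 0.028. The cathepsin Ctsb averaged 524, 456, 471 and 576 CPM, the cysteine protease inhibitor Cst3 932, 926, 811 and 794 CPM, and the lysosomal protein Lamp1 557, 422, 507 and 512 CPM in that order of genotypes. All 3 were lower in replicate 2 labelled G3 mTerc-/-Puma-/- than in the others under that label: Ctsb at 375, Cst3 at 310 and Lamp1 at 271 CPM. Ctss (31.2 CPM against 201 to 252 CPM), Ctsh (24.5 against 188 to 225 CPM) and Ifi30 (25.5 against 190 to 292 CPM) were lowered further there. Ctsl (42.9 against 33.1 to 41.9 CPM), Ctsd (535 against 451 to 506 CPM) and Cd63 (462 against 171 to 300 CPM) were higher. Genes of class II turnover had a median of -0.050: the intramembrane protease Sppl2a, which clears the last Cd74 fragment, was at 78.2, 71.7, 77.4 and 74.3 CPM, and the ubiquitin ligase March1 at 29.9, 29.9, 26.8 and 28.2 CPM, with 47.1 CPM of Sppl2a in replicate 2 of the last. March8, its relative, was at 20.9, 22.3, 23.2 and 21.8 CPM. In replicate 2 labelled G3 mTerc-/-Puma-/- March1 was at 2.93 CPM and March8 at 54.0 CPM, below and above the other 14 (17.0 to 35.1 and 17.0 to 26.4 CPM).

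Genes of the second, costimulatory signal to T cells, a list that also holds the inhibitory ligand Cd274, had a median of -0.17. Icosl averaged 42.0, 40.0, 37.8 and 40.1 CPM, Cd274 14.5, 19.1, 12.5 and 16.2 CPM, and Cd86 7.62, 7.53, 6.68 and 6.73 CPM in the same order. In replicate 2 labelled G3 mTerc-/-Puma-/- Icosl was at 14 and Cd86 at 1.08 CPM, below the other 3, and Cd274 at 23.6 CPM, above them. Cd80 ran opposite to the class II genes, with higher means in both G3 genotypes than in Puma-/-. It was at 1.42 to 1.95 CPM in Puma-/- and 3.45 to 4.81 CPM in replicates 1, 3 and 4 labelled G3 mTerc-/-Puma-/-. The log2 fold change between them was 1.24 ± 0.27 (adjusted p = 0.0886 in edgeR). These groups did not overlap, and replicate 2 under that label was lower, at 3.24 CPM. WT, at 1.44 to 2.26 CPM, overlapped with Puma-/-. G3 mTerc-/-Puma+/+ was at 4.08, 1.59, 3.53 and 2.49 CPM. It overlapped with Puma-/- through replicate 2, the lowest of its group as for the class II genes.

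The 10 genes whose log2 CPM was most like the mean of the 9 class II genes over 15 libraries, out of 18877, were Slamf8, Ust, Plbd1, Tbc1d9, Upk1b, Gm12551, H2-DMb2, Clec9a, Rtl5 and Col23a1, with Pearson's r between 0.970 and 0.980. Over 14 libraries the same genes had r between 0.901 and 0.943, and of them H2-DMb2 and Clec9a were still among the 10 most alike. Clec9a, a receptor of cross-presenting dendritic cells, is also in the conventional dendritic list.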

How the data were processed

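RNA of lin- BM cells was sequenced with a TruSeq Stranded mRNA kit. The authors trimmed reads (Trimmomatic 0.38), aligned them to mm10 (STAR 2.5.2b) and deposited raw counts per Ensembl gene; the annotation release and strand setting of counting are not given in the sources used here. Symbols came from GENCODE vM21 (563 identifiers had none). Counts were fitted in edgeR 4.0.16 (R 4.3.3; filterByExpr, TMM factors of 0.922 to 1.07, quasi-likelihood test) with all 4 genotypes in 1 fit of 14 libraries, and p-values were adjusted by Benjamini-Hochberg over 18983 genes with a threshold of 0.05. The common biological coefficient of variation was 0.251. CPM were scaled by TMM, with a prior count of 2 on the log2 scale. Exact permutation tests used scipy 1.17.1. Scripts were tested on simulated data.

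Alternatives were all 15 libraries, DESeq2 1.42.0, limma-voom (limma 3.58.1), library size alone, other filters and only the groups compared. Further ones were a replicate block, Xist as a covariate and leaving out each library. The pathway and marker lists, like the 9 genes, were chosen with earlier results of these data known. Named genes were the 9, pathway list genes past the threshold (there were none), up to 3 per pathway list with the highest mean CPM, and the 10 most alike. H2-Eb2, Rfx5, Cd80, further genes of the endosomal list and single cell type markers were named after their values were seen. No 2 libraries of a group agreed within sampling noise. Depth covers counting error only. Some single marker genes are not reported here.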

Additional observations from a re-analysis of the deposited data

Results flagged for a closer look

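In 6 of 27 pairs of a class II gene and a genotype with 4 libraries, 1 library stood apart from the other 3 by a gap that Dixon's test at the 95% level calls an outlier, a limit that chance passes in about 1 of 20 groups. In all 6 it was replicate 2 labelled G3 mTerc-/-Puma-/-. It had 0.915 CPM of Ciita where the other 3 libraries had 15.6 to 23.7 CPM, 20.3 CPM of H2-Aa where they had 194 to 262 CPM, and 29.7 CPM of H2-Ab1 where they had 201 to 268 CPM. For H2-DMa it had 35.9 CPM against 162 to 185 CPM, for H2-DMb1 15.7 CPM against 82.6 to 89.9 CPM, and for H2-Oa 3.69 CPM against 7.80 to 8.89 CPM. H2-Eb1, Cd74 and H2-Ob were also lowest in this library but within the limit. The WT group, with 3 libraries, was not examined in this way.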

How the results depend on the processing

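In G3 mTerc-/-Puma+/+ against Puma-/-, all 207 fold changes of the 9 genes under 23 alternatives kept their direction (-1.30 to -0.04) and 12 passed the threshold. DESeq2 called 7 genes there and 1 in libraries under the G3 mTerc-/-Puma-/- label against Puma-/-, and limma-voom called 1 in the former; leaving out 1 library gave 0 to 3 and 0 to 1 genes. In the second comparison 205 of 207 values kept direction and call (-1.17 to -0.04), and the 2 others passed the threshold, Ciita with DESeq2 and H2-Aa without G3 mTerc-/-Puma+/+ replicate 2.

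Small values changed sign. With all 15 libraries, libraries under the G3 mTerc-/-Puma-/- label against G3 mTerc-/-Puma+/+ gave -0.35 for H2-Aa, -0.24 for H2-Ab1, -0.17 for H2-Eb1, -0.0832 for Cd74, -0.25 for H2-DMa, -0.21 for H2-DMb1 and -0.16 for H2-Oa, against WT -0.32 for H2-DMb1 and -0.035 for H2-Ob, and an interaction of -0.26 for H2-DMa. Mean levels in that group moved to 169.8 (H2-Aa), 175.9 (H2-Ab1), 14.4 (Ciita), 139.1 (H2-DMa), 68.2 (H2-DMb1) and 7.17 CPM (H2-Oa), and library size alone gave 82.6 CPM of H2-DMb1 in WT. With Xist as a covariate, H2-DMa was at -0.0781 in Puma-/- against WT and H2-Aa at -0.0203 between the G3 genotypes. The same term moved the median of the 9 genes from 0.47 to 0.31 in Puma-/- against WT and from -0.78 to -0.57 in G3 mTerc-/-Puma+/+ against Puma-/-, where 18 in place of 152 genes were called. Causes were not tested beyond the library or term that was changed.

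Leaving out 1 library, the G3 genotypes differed by -0.26 to 0.0578 for Ciita, -0.20 to 0.24 for H2-Aa, -0.0838 to 0.35 for H2-Ab1, -0.0486 to 0.50 for H2-Eb1, -0.0814 to 0.20 for H2-DMa, -0.0459 to 0.30 for H2-DMb1 and -0.10 to 0.14 for H2-Oa. H2-DMa in Puma-/- against WT ranged from -0.0622 to 0.0668. Against WT, G3 mTerc-/-Puma+/+ ranged from -0.30 to 0.0483 (H2-DMb1), -0.22 to 0.0281 (H2-Oa) and -0.32 to 0.0277 (H2-Ob), and libraries under the G3 mTerc-/-Puma-/- label from -0.0232 to 0.0392 (H2-DMb1) and -0.17 to 0.0787 (H2-Oa). The interaction ranged from -0.41 to 0.0219 (Cd74), -0.0826 to 0.20 (H2-DMa) and -0.31 to 0.0414 (H2-DMb1).

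The labels share replicate numbers, but they did not pair the libraries: deviations of same-numbered libraries correlated at -0.253 to 0.175 (median 0.0203) and of others at -0.246 to 0.254. A replicate block gave 0 of the 9 genes in each comparison (lowest adjusted p 0.0925), 43 in place of 152 genes in G3 mTerc-/-Puma+/+ against Puma-/-, and values of -0.00755 for H2-DMa in Puma-/- against WT, -0.0802 for H2-DMb1 in libraries under the G3 mTerc-/-Puma-/- label against WT and -0.00924 for H2-Aa between the G3 genotypes.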
